A study of Prunus persica with 2 samples.

Results

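In the peach fruit small RNA library, 70 predicted miRNA loci, of 275 in all, were listed with 1 arm only and carried a sequence that was also listed for another predicted locus. They were chosen by name and sequence from the deposited miRNA list, after 15 loci named in the rule had been set aside, and they carried 27 distinct sequences of the 257 among the predicted arms. The library was made from fruits of Prunus persica cultivar 'Troubador', a yellow-fleshed peach, taken at 5 stages (day 35, day 55, day 75, day 90 and day 105 after full bloom) and mixed, and RNA of 18 to 30 nt was sequenced. A degradome library, in which reads start at the cut ends of mRNAs, was made from the fruit as well. There was 1 library of each kind, so no value below has a replicate, no test between conditions was possible, and the intervals given (95%, exact Poisson for counts and Clopper-Pearson for shares) cover counting error only.

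A plant miRNA is cut by DICER-LIKE1 from the stem of a folded transcript and guides ARGONAUTE1 to a complementary mRNA, which is then sliced or silenced. The strand that is kept is the mature miRNA, and its partner on the other arm of the hairpin, the miRNA star, is usually lost. Several genes of a plant genome can encode the same mature miRNA, as in the miR166 family, and their hairpins then often differ outside the duplex. Inverted repeats, such as those of short transposable elements, also fold into hairpins, and other DICER-LIKE enzymes make small interfering RNAs from long double-stranded RNA. A read that matches several places exactly does not show which of them it came from.

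The sequences that the results turn on are shown first, written as DNA as in the deposited list, 5′ to 3′, with the seed (bases 2 to 8) in capitals. Each is called by its lowest-numbered single-arm locus. The first 6 were the sequences listed at 4 loci or more:
m0015: aAAGACTAaaatacccttga
m0002: gTGGTCACccactgttggata
m0045: tGTCTATTtcagtacgtcgtgta
m0005: aGCACGACggtatgctcggattt
m0051: gGATTGTTtagtgtgcggatt
m0057: tAAATGCAgggacaaaatgat

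The next 4 were the other sequences with high counts or with a place in the results on miR166 and on cleavage:
m0073: gGAATGTTgtctggctcgagg
m0194: gTGGAAAAtgtatgatgacgtca
m0085: aCATGGTTgattgttttaggg
m0007: aGGTAGTTcccaggacagctc

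The last 4 were listed on the 5′ arm of 1 hairpin and the 3′ arm of another:
m0012: cTAAGTTAaatgggattgtggag
m0058: aAATGACAagtggctagtttt
m0049: tATATTTAtattttccgtcgtta
m0088: gTGGGAAGtgaaaaacatggcta

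No pair of the 27 sequences had the same seed, so the 27 formed 27 seed groups. None was identical to any of the 557 known miRNAs in the list. By edit distance (the number of changed, added or lost bases between them), 25 of the 27 lay 7 edits or more from every listed known miRNA, and the nearest was m0194 at 4 edits from miR5020, which was listed with 3 reads. m0176 was 6 edits from miR5492, which had 1 read.

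Copy number was low for most of these sequences. Of the 27, 18 were listed at 2 loci, 3 at 3 loci, 3 at 4 loci, 2 at 5 loci and 1 at 13 loci. The single-arm loci made up all copies of 22 sequences. The other 5 (m0002, m0015, m0051, m0095 and m0097) were also listed for 10 loci that had both arms, so that the 27 sequences stood at 80 predicted loci in all. m0051, m0095 and m0097 were each the lone single-arm locus of their sequence. The m0015 sequence was listed at 9 single-arm loci (m0015, m0052, m0104, m0155, m0170, m0188, m0209, m0270 and m0272) and at 4 loci with both arms. The m0045 sequence had 5 loci, all single-arm (m0045, m0080, m0083, m0158 and m0212), and the m0002 sequence had 4 single-arm loci (m0002, m0038, m0109 and m0267) beside m0112. The m0005 sequence (m0005, m0006, m0120 and m0264) and the m0057 sequence (m0057, m0140, m0144 and m0214) had 4 single-arm loci each.

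Counts were low as well. Each sequence counted once, by the highest count listed among its single-arm loci, the 27 sequences had 1813 reads. With the both-arm loci of the same sequences included, their highest counts added to 1878 reads, which was 4.25% (4.06 to 4.44%) of the 44219 reads of all predicted sequences counted in that way. The 27 sequences were 10.5% of the distinct predicted sequences, and the 70 single-arm loci were 25.5% of the predicted loci. When every single-arm locus was counted, the total was 6464 reads, because the reads of 1 sequence then entered once for each such copy. The median sequence had 14 reads, with quartiles of 9 and 61 and a range of 5 to 359. The 144 single-arm loci with a sequence of their own had a median of 13 reads and a range of 5 to 6300. The medians differed by 1 read, while the highest count, 359 reads, was far under the 6300 reads reached among those with 1 copy.

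The reads were concentrated in a few sequences. By single-arm loci, m0015 had the highest count, 359 reads (323 to 398). It was followed by m0073 with 317 (283 to 354), m0002 with 263 (232 to 297) and m0051 with 230 (201 to 262). These 4 held 64.5% of the reads of the 27 sequences counted in this way. At its both-arm loci the m0051 sequence was listed with 293 reads, above the count of m0002, so the order of these 2 depends on the loci used. m0194 had 149 reads (126 to 175) and m0085 had 110 (90.4 to 133), which brought the share of the first 6 to 78.8%. The intervals of m0015 and m0073 overlapped, as did those of m0073 and m0002 and those of m0002 and m0051, so these neighbours in the order were not separated at this depth. m0007 and m0058 had 61 reads each and m0012 had 60, with intervals that lay below that of m0085. The other 18 sequences had under 30 reads. Among them m0084 (with m0146) had 25 reads and m0115 (with m0116) had 22, m0005 and m0022 (with m0219) had 15 each, and m0049 (with m0153) had 14. m0176 (with m0185) had 12 reads, m0009 (with m0147), m0045 and m0057 had 11, and m0008 (with m0114) had 10. The remaining 8 had 5 to 9 reads: m0016 (with m0047 and m0087), m0088 (with m0206), m0097, m0164 (with m0243), m0089 (with m0232 and m0275), m0136 (with m0195), m0225 (with m0226) and m0095. For these 8 the intervals ran from 1.62 at the lowest bound to 17.1 at the highest, and no order among them could be read.

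**Figure D1:**
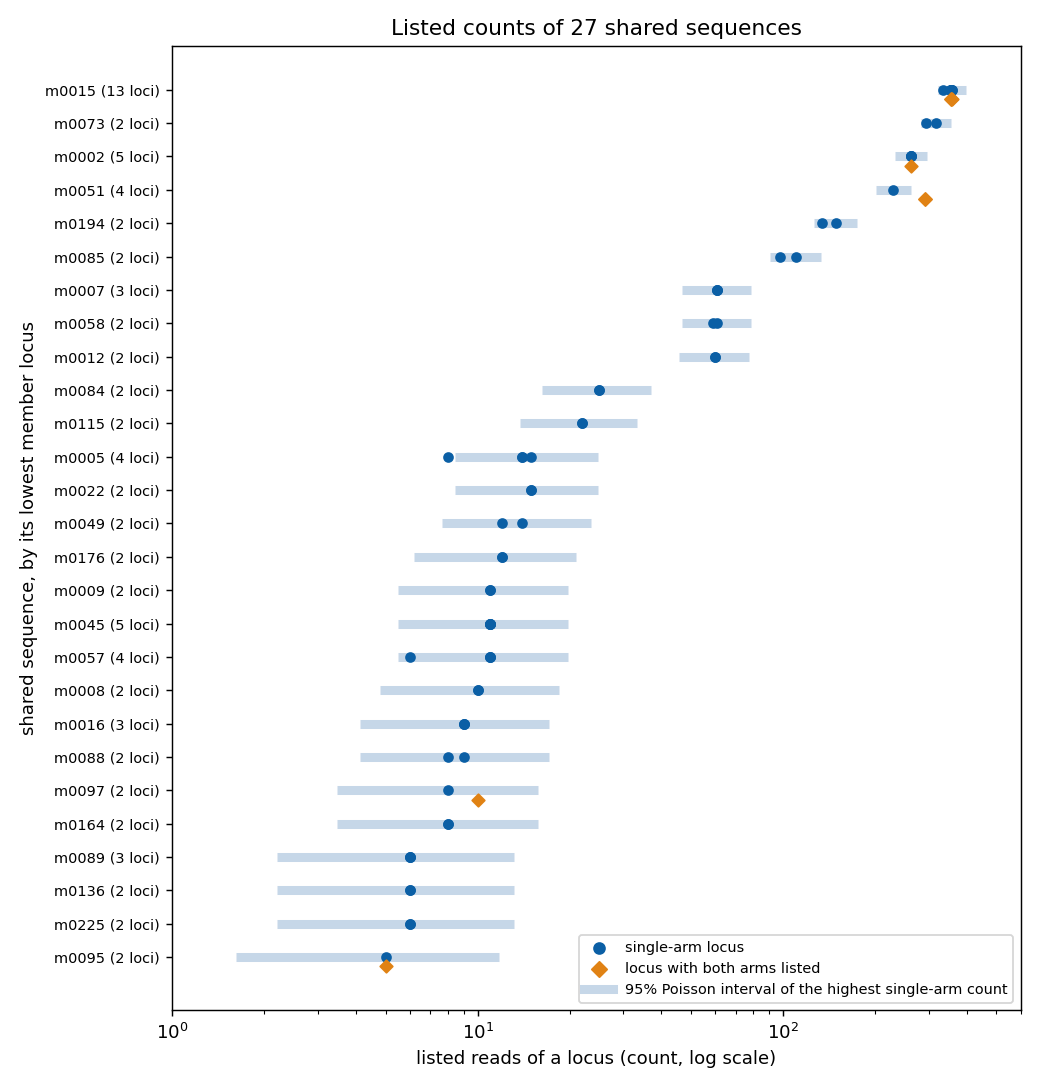
Listed reads of each locus (log scale) for the 27 shared sequences, ordered by the highest single-arm count; round points are single-arm loci, diamonds are loci with both arms listed, and the pale bars are 95% Poisson intervals of the highest single-arm count. The first 6 sequences lie above 100 reads and 18 lie under 30, and copies of 1 sequence lie on or near each other, and m0264 (8 reads), m0144 (6 reads) and m0051 (230 reads) are listed lower than their copies.

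Copies of 1 sequence did not always have the same listed count. Of the 24 sequences with at least 2 single-arm loci, 15 had the same count at every one and 9 did not. The study's own alignments of reads to the hairpins count reads that start or end a few bases off the listed sequence, and the part of such reads in these differences was not tested. The ratio of the highest to the lowest count over all loci of a sequence was at most 1.88. That was the m0005 sequence, listed with 14 reads at m0005 and m0006, 15 at m0120 and 8 at m0264. The m0057 sequence had 11 reads at m0057, m0140 and m0214 and 6 at m0144. The m0051 sequence had 230 reads at m0051 and 293 at each of m0036, m0171 and m0241, where both arms were listed. The lone single-arm copy was thus the one listed lower. m0073 and m0168 had 317 and 295 reads, m0255 and m0194 had 149 and 134, and m0085 and m0263 had 110 and 98. Within the m0015 sequence the range was 334 (m0209) to 359 (m0104, m0117 and m0155). Since copies share most of their reads, these counts are not independent, the Poisson intervals do not apply to differences between copies, and no such difference was tested.

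The hairpins gave the copies their places. The study's list of predicted hairpins held 68 of the 70 loci (m0047 and m0087 were not analysed for hairpins here), among 266 hairpins in all. The 68 lay on 13 scaffolds of the peach assembly used by the authors, whose release the sources used here do not name. Scaffold 1 had 12, scaffold 3 had 10 and scaffold 4 had 8, and 61 of the 68 lay on scaffolds 1 to 8. On the strand, 41 were on minus and 27 on plus, against 89 minus and 109 plus for the other 198 predicted hairpins. Copies were mostly dispersed: of the 26 sequences with at least 2 hairpins in the list, only 4 had all of them on 1 scaffold. Gene models, exons and introns at these places were not analysed here.

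Adjacent copies were few. m0005 (scaffold 12, 312530 to 312627, minus) and m0006 (scaffold 12, 312986 to 313083, minus) were 358 nt apart and had identical hairpins. m0115 (scaffold 3, 15249853 to 15249948, minus) and m0116 (scaffold 3, 15252548 to 15252643, minus) were 2599 nt apart, also with identical hairpins. m0225 and m0226 lay on scaffold 7 with 28880 nt between them. The hairpin of m0267 (scaffold 8, 10547987 to 10548113, minus) overlapped that of m0254 on the other strand by 4 nt and lay 10551 nt from m0255, and neither neighbour had its sequence.

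The 68 hairpins had a median length of 155 nt (74 to 365), against 133.5 nt (70 to 365) for the other 198. Refolded with RNAfold, their median minimum free energy was -53.3 kcal/mol against -48.8, but per nucleotide it was less negative, -0.263 against -0.359 kcal/mol. In these folds a median of 82.6% of the bases of the shared sequence were paired, against 86.0% for the listed sequence of the other hairpins. MIREAP, the prediction program, had already required a paired stem and a low energy, so these values describe what passed that filter. The lowest pairing was in m0049, with 9 of the 23 bases paired, and m0264, with 11 of 23. In m0115 and m0116 22 of the 23 bases were paired.

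The identity of whole hairpins with the same sequence differed widely. Identity was taken as 1 minus the edit distance over the length of the longer hairpin, as a percentage. Over 140 pairs of hairpins with the same sequence the median was 73.1% and the range 27.5 to 100%, but 78 of these pairs came from the m0015 sequence alone. The median over the other 62 pairs was 89.0%, and the median of the 26 medians by sequence was 82.3%. The comparison level was the 15611 pairs of a single-arm hairpin with a hairpin of another sequence, whose median was 43.0%, with 27.2 and 50.0% as the 5th and 95th percentiles and 59.4% as the highest. Of the 140 pairs, 112 lay above that highest value and 28 at or below it. Above it were 64 of the 78 pairs of the m0015 sequence and 48 of the other 62. By sequence, 9 of 26 had every pair at or above 90%, 6 had every pair under 60%, and 11 lay between. These limits were set with the values known. Both hairpins of a pair with the same sequence hold it, which raises their identity, while the comparison pairs have no such stretch. The 112 and 28 pairs therefore do not measure likeness outside the shared sequence alone. With the shared sequence taken out, the median over pairs was 70.6%. In that setting 9 sequences were in the highest class and 7 in the lowest, and no comparison level is given for it.

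In the first class the whole hairpin was repeated. m0115 and m0116, and m0176 and m0185, were identical over their full length. m0194 and m0255 were 99.0% identical, m0009 and m0147 98.7%, m0225 and m0226 98.5%, m0008 and m0114 97.3%, m0164 and m0243 96.2%, and m0136 and m0195 95.2%. The 5 hairpins of the m0002 sequence were 95.3 to 100% identical on 4 scaffolds, with m0002 and m0109 the same at every base. The m0002 hairpin is shown as an example, with the shared sequence in capitals (scaffold 10, 819072 to 819199, minus strand):
m0002 hairpin: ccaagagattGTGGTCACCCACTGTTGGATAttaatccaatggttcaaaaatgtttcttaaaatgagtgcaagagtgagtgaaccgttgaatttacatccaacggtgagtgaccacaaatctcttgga

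The reverse complement of its sequence was found 3 edits away at bases 96 to 116, on the other arm, and 19 of the 21 bases were paired in the fold. The m0115 hairpin held its own sequence in a second place. With the listed copy in capitals (scaffold 3, 15249853 to 15249948, minus strand), bases 26 to 47 differed from it by 2 edits on the same strand:
m0115 hairpin: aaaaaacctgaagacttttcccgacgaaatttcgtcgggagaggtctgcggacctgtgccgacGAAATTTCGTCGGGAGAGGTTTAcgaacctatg

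Such a near copy on the same strand within 2 edits was found in 1 other single-arm hairpin besides m0116, m0212, where bases 202 to 223 were 1 edit from the m0045 sequence. m0212 was also the copy of unlike length in its set. The hairpins of m0045, m0080, m0083 and m0158 were 98.1 to 100% identical and 155 nt long. m0212 was 342 nt long and 44.7 to 45.0% identical to them. Nearly all of the 188 or 189 edits between m0212 and each of them were the difference in length. These values therefore do not show that m0212 differed from them apart from its extra length. All 5 had 11 reads.

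In the class under 60%, most pairs were of very unequal length. m0058 and m0099 were 32.3% identical, m0012 and m0102 36.4%, m0095 and m0111 37.6%, m0088 and m0206 42.9%, m0097 and m0125 43.8%, and m0049 and m0153 53.0%. All but m0049 and m0153 lay inside the 5th to 95th percentile range of hairpins with different sequences. Edit distance also counts the difference in length between hairpins of unequal size. Except for m0049 and m0153, that difference alone held identity under 60%, as with m0058 (288 nt) and m0099 (108 nt). How much such hairpins shared beyond the sequence can therefore not be read from this measure.

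**Figure D2:**
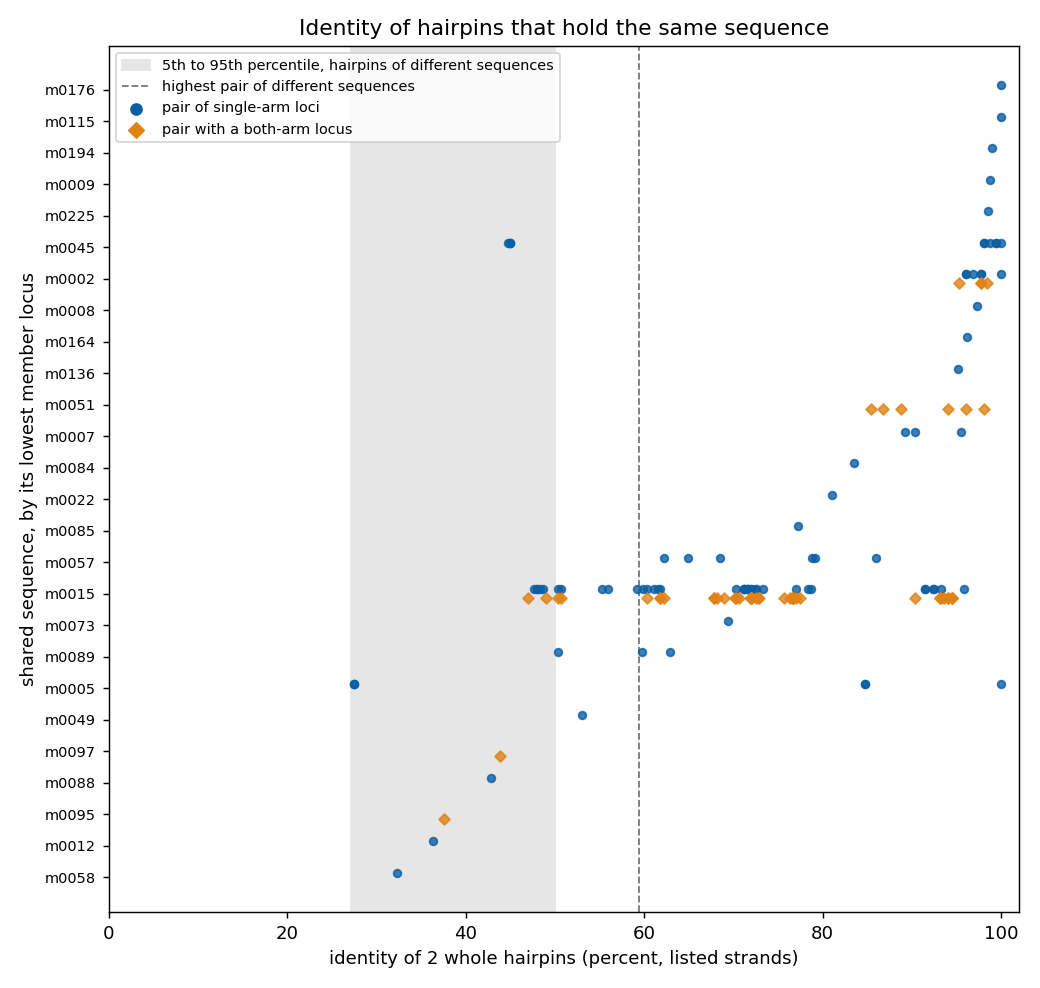
Identity of every pair of hairpins with the same sequence (percent), one row per sequence ordered by its median; blue points are pairs of single-arm loci and orange diamonds pairs with a both-arm locus, the grey band is the 5th to 95th percentile of hairpins with different sequences (27.2 to 50.0%) and the dashed line their highest pair (59.4%). The rows from m0136 to m0176 sit above 95% except for m0212 of the m0045 sequence, near 45%, and the m0058, m0012, m0095, m0088 and m0097 rows lie inside the grey band.

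Of the 6 sequences in that class, 5 were found on opposite arms of different hairpins. In all, 6 of the 27 sequences were listed on the 5′ arm at 1 locus and on the 3′ arm at another, 14 only on the 5′ arm and 7 only on the 3′ arm. m0012 (5′, scaffold 1) and m0102 (3′, scaffold 3) had 60 reads each. m0058 (5′, scaffold 1) had 59 reads and m0099 (3′, scaffold 3) had 61. m0153 (5′, scaffold 4) had 14 reads and m0049 (3′, scaffold 1) had 12, m0088 (5′) had 9 and m0206 (3′) had 8, and m0095 (3′) and m0111 (5′) had 5 each. The sixth was the m0005 sequence, on the 5′ arm of m0005, m0006 and m0120 and on the 3′ arm of m0264. The 342-nt hairpin of m0264 was 27.5% identical to each of the other 3, which were 97 or 98 nt long. Nearly all of the 248 edits were the difference in length, so this value does not show how unlike the hairpins were. At such loci reads of 1 sequence were thus listed for opposite arms.

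**Figure D3:**
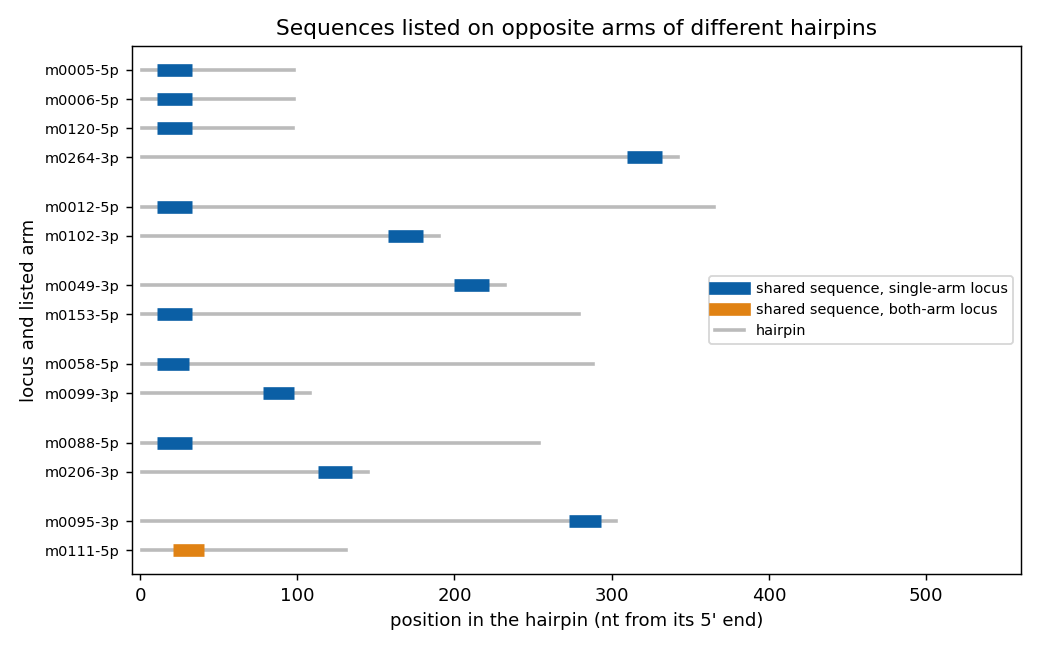
Place of the shared sequence (thick bar; blue for single-arm loci, orange for the both-arm locus m0111) in each hairpin (grey line, nt from its 5′ end) for the 6 sequences listed on opposite arms. The sequence starts at base 11 of the hairpin when listed on the 5′ arm of a single-arm locus and lies near the 3′ end when listed on the 3′ arm. The single-arm hairpins of the other shared sequences had the same places, so these are not particular to the 6.

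The m0015 sequence, with 13 loci on 7 scaffolds, had the most copies, all on the 3′ arm. Its hairpins were 47.0 to 95.8% identical, with a median of 72.0%. At 90% identity, m0004, m0118, m0188, m0270 and m0272 formed 1 set (92.5 to 95.8%) and m0052, m0104, m0117 and m0155 a second (90.3 to 93.2%). Between the sets identity was 70.3 to 73.3% on the listed strands, and 90.0 to 100% when the second hairpin was reverse-complemented, so the sets were near reverse complements of each other. The pair at 100% was m0104 and m0118, which are the 2 strands of 1 place (scaffold 3, 17476033 to 17476268). The plus strand of that place, m0104, is shown with the reverse complement of the sequence (bases 11 to 30) and the sequence itself (bases 207 to 226) in capitals:
m0104 hairpin: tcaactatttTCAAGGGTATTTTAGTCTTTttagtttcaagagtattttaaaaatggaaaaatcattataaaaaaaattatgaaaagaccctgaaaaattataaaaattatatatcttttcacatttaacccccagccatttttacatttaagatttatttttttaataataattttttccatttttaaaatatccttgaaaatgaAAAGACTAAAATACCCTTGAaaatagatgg

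In this hairpin the 2 capital stretches are exact reverse complements, so each strand of the place holds the m0015 sequence on its 3′ arm. The reverse complement was exact in 2 of the 13 hairpins (m0104 and m0118), 1 edit away in 9, 2 edits away in m0052 and 5 edits away in m0209. Among all 68 single-arm hairpins 11 had it within 2 edits, and 8 of those 11 carried the m0015 sequence. m0209, which also had the lowest count of the 13 (334 reads), had a 300-nt hairpin with 44.7% GC, and 12 of its 20 mature bases were paired. m0170 (353 reads) had 38.9% GC. The other 11 hairpins had 17.9 to 21.8% GC. The m0057 sequence showed the same arrangement in smaller number: the hairpin of m0214 was 62.2 to 68.5% identical to those of m0057, m0140 and m0144 as listed and 79.3 to 82.5% identical after reverse complementing.

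Of the 68 hairpins, 2 held a listed known miRNA exactly, and these 2 were m0073 and m0168, with the same known sequence, miR166. miR166 is a conserved plant miRNA known to guide cleavage of HD-ZIP III transcription factor mRNAs, which act in leaf polarity and vascular development. Its deposited sequence, with the seed in capitals and in RNA letters as listed, was:
miR166: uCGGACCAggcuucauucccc

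The 2 hairpins are shown with the m0073 sequence on the 5′ arm and miR166 on the 3′ arm in capitals (m0073 on scaffold 2, 19692914 to 19693068, plus; m0168 on scaffold 5, 12581626 to 12581785, plus):
m0073 hairpin: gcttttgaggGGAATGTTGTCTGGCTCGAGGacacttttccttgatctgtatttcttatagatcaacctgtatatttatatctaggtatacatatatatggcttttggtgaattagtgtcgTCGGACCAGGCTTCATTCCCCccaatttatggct
m0168 hairpin: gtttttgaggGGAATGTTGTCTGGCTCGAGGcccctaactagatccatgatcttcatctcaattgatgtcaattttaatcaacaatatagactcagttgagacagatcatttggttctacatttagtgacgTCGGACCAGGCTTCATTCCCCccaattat

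The shared sequence took bases 11 to 31 in both, and miR166 took bases 122 to 142 in m0073 and 132 to 152 in m0168. The hairpins were 69.4% identical, and 17 of the 21 bases of the 5′ sequence were paired. The stretch most complementary to the 5′ sequence, bases 120 to 140 in m0073 and 130 to 150 in m0168, lay 2 bases upstream of miR166. The 2 sequences thus faced each other in the stem of each predicted hairpin, which does not show where their reads came from. miR166 was listed with 39453 reads, which was 124 times the 317 reads at m0073 and 134 times the 295 reads at m0168. The 5′ sequence made up 0.797% and 0.742% of the reads of both arms at m0073 and m0168, if all miR166 reads are set against each hairpin. The miR166 reads cannot be divided between these 2 hairpins. With up to 2 edits allowed, the same 2 hairpins also matched miR165, which is 1 edit from the hairpin sequence and was listed with 35 reads, and no further hairpin matched a known miRNA. m0095 overlapped other predicted sequences: the 5′-arm sequence of m0094 and m0110 (5 reads each) lay 2 bases downstream in its hairpin, and the m0095 sequence stood in the hairpins of both. The hairpins of m0104 and m0170 held, at bases 13 to 32, 5′-arm sequences listed for both-arm copies of the m0015 sequence. These were the 5′ arms of m0117 and m0175 in m0104 and of m0004 and m0118 in m0170, with 1 read each.

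The 27 sequences had 20 to 23 nt. The largest class was 23 nt, with 13 of 27 (48.1%, 28.7 to 68.1%), against 62 of 230 (27.0%, 21.3 to 33.2%) of the other predicted sequences. The 21-nt class, the usual product of DICER-LIKE1, had 9 of 27 (33.3%, 16.5 to 54.0%), against 116 of 230 (50.4%, 43.8 to 57.1%). The intervals overlapped in both classes. By reads the order was the reverse: 21-nt sequences held 1064 of the 1813 reads (58.7%) and 23-nt sequences 340 (18.8%). The 9 sequences of 21 nt had a median of 61 reads and the 13 of 23 nt had a median of 12, against 18 and 12 reads for other predicted sequences of those lengths. A first base of U, which ARGONAUTE1 is known to prefer, was found in 9 of 27 (33.3%, 16.5 to 54.0%), against 100 of 230 (43.5%, 37.0 to 50.2%) of the other predicted sequences. These 9 held 5.52% of the reads, and the 6 sequences that start with G held 54.6%, since m0073, m0002, m0051 and m0194 are among them. Shares by reads, of length or first base, were not computed for the other predicted sequences, so they have no comparison here. The median GC content was 39.1% (21.7 to 60.9%), against 45.5% (19.0 to 70.0%) for the others.

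**Figure D4:**
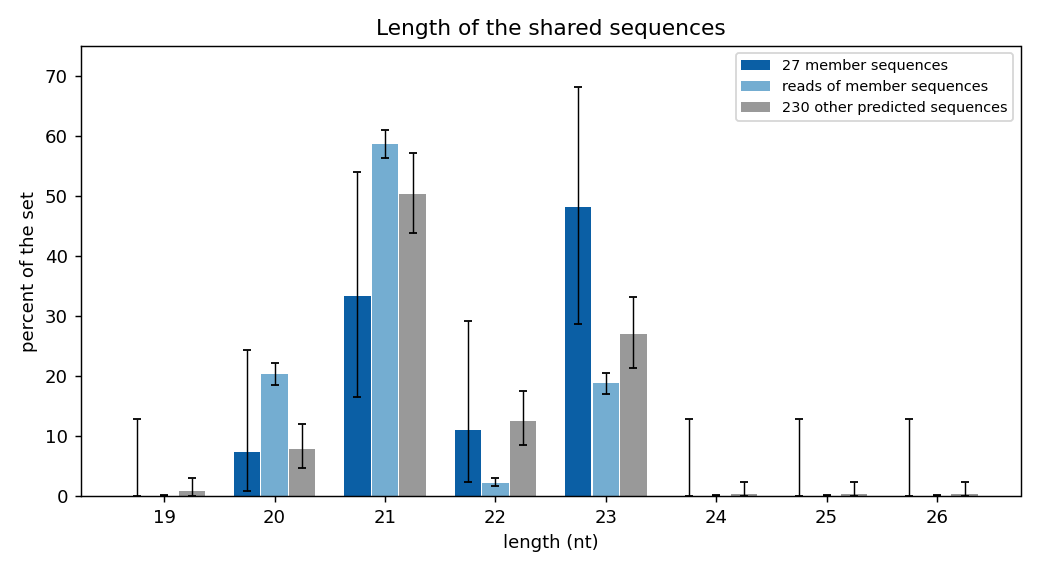
Length of the 27 shared sequences, of their reads (each sequence counted once) and of the 230 other predicted sequences, as percent of each set, with 95% Clopper-Pearson intervals. By sequence, 23 nt leads among the 27 (48.1%) and 21 nt among the others (50.4%), while by reads 21 nt leads (58.7%).

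The degradome list of 469 miRNA and transcript pairs held 3 of the 70 loci, and these were the 3 copies of 1 sequence. m0007, m0020 and m0220 were each paired with ppa026970m, a predicted peach transcript for which the sources used here give no description, and the 3 rows were the same site. The alignment ran over 20 nt, from nucleotide 25 to 44 of the transcript, for a sequence of 21 nt, with a score of 4, the highest (weakest) score in the list and that of 247 of its pairs. The cut was at nucleotide 36, which is base 9 counted back from the end of the aligned stretch. The site had 16 raw reads (9.15 to 26.0) and 16 normalized reads, against a median of 2 raw reads over all listed pairs. It was in category 2, a site with more reads than the median position of its transcript but fewer than the highest. The p-value listed for it, which comes from CleaveLand and not from a test across samples, was 0.32. None of the 3 pairs had a listed p-value under 0.05, and 18.6% of the 469 pairs did. No other listed miRNA was paired with this transcript. The study's target alignments read here placed the m0007 sequence on ppa016392m, ppa020399m, ppa024301m and ppa020985m. None of these was in the degradome list, and ppa026970m was not among them.

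The hairpins of these 3 loci were 89.2 to 95.5% identical and lay on scaffolds 13, 1 and 7. The m0007 hairpin (scaffold 13, 411646 to 411887, minus strand) is shown with the sequence in capitals:
m0007 hairpin: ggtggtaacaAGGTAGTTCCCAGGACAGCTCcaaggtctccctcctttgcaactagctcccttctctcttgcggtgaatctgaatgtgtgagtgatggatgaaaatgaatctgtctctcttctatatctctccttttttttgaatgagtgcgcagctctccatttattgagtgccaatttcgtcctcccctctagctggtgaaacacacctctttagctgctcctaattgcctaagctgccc

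By sequence, 1 of the 27 (3.7%, 0.0937 to 19.0%) had a listed degradome pair. This share was in part set by how the loci were chosen, since 7 of the 11 sequences of the 15 loci set aside had a listed pair. Of the other 230 predicted sequences, 44 (19.1%, 14.3 to 24.8%) had one. Without the 11 sequences of the loci set aside, 37 of 219 (16.9%, 12.2 to 22.5%) did. Of the 15 loci, 7 were single-arm with a shared sequence. With these 7 loci added back, 5 of 31 shared sequences (16.1%, 5.45 to 33.7%) had one, against 40 of 226 (17.7%, 13.0 to 23.3%) of the predicted sequences outside these. No difference in cleavage can therefore be read from the count of 1 in 27. For m0015, m0073, m0002 and m0051, the sequences with the most reads, no pair was listed.

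Some of these sequences nonetheless have closely complementary stretches in peach transcripts. The study's target alignments place m0015 on ppa017834m, m0085 on ppa012167m and m0049 on ppa009842m. The transcript stretches, as RNA from 5′ to 3′, were:
ppa017834m: uuaaggguauuuuagucuuu
ppa012167m: cccuaaaguaaucaaccaugu
ppa009842m: caacgacggaaaauauaaauaua

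The m0015 sequence paired with the first by 19 Watson-Crick pairs and 1 G-U pair over 20 nt, with no mismatch. The m0085 sequence paired with the second by 19 Watson-Crick and 2 G-U pairs over 21 nt, also with no mismatch. The m0049 sequence had 22 Watson-Crick pairs over 23 nt with 1 mismatch. None of these 3 transcripts was in the degradome list with any miRNA, so no listed cut bears on these stretches.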

How the data were processed

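Small RNAs of pooled fruit were sequenced by the authors, filtered, mapped to the peach genome with SOAP and compared with miRBase, and hairpins were predicted from the remaining reads with MIREAP. The miRNA list holds raw read counts as deposited by the authors, with no normalization. The degradome list holds raw read counts and normalized reads (a signal) at each cut, alignment scores, categories and p-values, as deposited by the authors from CleaveLand 3.0; its columns were used as given, and the sources used here do not state its thresholds. The members and lists were chosen with earlier results of these data known. Every member sequence was named, and those with 4 or more copies, high or unequal counts, a known miRNA or a degradome pair were described in full. Hairpin sequences and places came from the study's hairpin list. Counts, intervals (SciPy 1.17.1), hairpin identity (edlib 1.3.9.post1) and folds (ViennaRNA 2.7.2) were computed in Python 3.11.15 and tested on simulated data. Listed reads totalled 2308209, of which 53349 were for predicted arms. No test across samples was run, with 1 library of each kind.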

Additional observations from a re-analysis of the deposited data

How the results depend on the processing

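With 1 pooled library of each kind, biological spread is unknown, and counts of 5 to 15 reads separate few sequences. Of 33 alternatives, 26 left their result alike. That meant counts of loci, sequences, hairpins or pairs within 1.5 times, and reads and shares within their counting interval. For the median identity it meant within the quartiles of the pairs, 61.8 and 93.8%. These limits are wide, and the identity classes changed within them. With edit distance over the shorter hairpin, the highest class had 13 sequences instead of 9. With single-arm loci only, the lowest class had 4 instead of 6, since m0095 and m0097 then had no pair. In the other settings the highest class had 9 and the lowest 6 or 7. The reads of the shared sequences were 6464 with every single-arm locus counted and 1722 by the lowest count listed among these loci. By reads, 23-nt sequences held 18.8%, 21-nt sequences 58.7% and sequences starting with U 5.52%, so the order of the 21-nt and 23-nt classes depends on this choice. With alignment scores of at most 3, the degradome pairs numbered 0, and with the left-out loci added back, an alternative chosen after the data were seen, they numbered 31. The number of sequences was 31 with the left-out loci added back, 34 with both-arm loci added and 19 with at least 10 reads. The median hairpin identity was 85.7% in the better of both orientations and 72.5% over single-arm loci only, both chosen after the data were seen. No paired analysis was possible because each group has 1 library and the results come from no test.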

Other observations

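Among the 13 shared sequences of 23 nt, 8 ended in TA (61.5%, 31.6 to 86.1%), against 30 of 62 (48.4%, 35.5 to 61.4%) of the other predicted sequences of that length. Among sequences of other lengths 2 of 14 shared ones ended in TA, against 15 of 168 of the others. The ending at 23 nt was thus frequent in both sets, and the intervals overlapped. The 8 were m0008, m0022, m0045, m0049, m0088, m0089, m0115 and m0225, of which m0115 had the highest count, 22 reads. The reason for this ending was not tested.

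The hairpin of m0051 was 78.0% identical to the reverse complement of that of m0151, a predicted locus with another sequence, while its identity with the hairpins that carry its own sequence was 85.4 to 88.8%. This was the highest value over all pairs of a single-arm hairpin with a reverse-complemented hairpin of another sequence.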
